A study of Homo sapiens with 4 samples.

Results

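The myeloid transcription factor genes SPI1, CEBPA, CEBPB, CEBPD, CEBPE, KLF4, GFI1, EGR1 and EGR2 were examined for peaks of trimethylated lysine 4 of histone H3 (H3K4me3) and of WDR5 in a pair of leukemia lines, RS4;11 and THP-1. A peak was taken for a gene when a line of the deposited file named that gene symbol, which the authors did for peaks up to 20 kb from a transcript. These 9 genes were chosen by name from 20110 protein-coding genes of the annotation. RS4;11 is a B-cell precursor acute lymphoblastic leukemia line and THP-1 is a monocytic acute myeloid leukemia line. Each carries an MLL rearrangement according to the paper. Both were grown in RPMI1640 with 10% fetal bovine serum. There was 1 sample of each line for each antibody (ab8580 for H3K4me3, ab56919 for WDR5). No difference between the lines therefore has a replicate check, and no test was made. The labels give both H3K4me3 samples the myeloid type of leukemia and both WDR5 samples the lymphoblastic type, and the cell line was followed here.

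H3K4me3 is placed at the promoters of genes that are active or poised for activity by methyltransferases of the MLL and SET1 type, in which WDR5 is a shared core subunit. The factors studied here steer blood progenitors toward granulocytes and monocytes. PU.1, the product of SPI1, and C/EBPα open the myeloid program, other C/EBP proteins, KLF4 and the EGR proteins act as the cells mature, and GFI1 represses genes of the monocytic branch in favor of the granulocytic one. PU.1 is also needed in early B cells, so a marked SPI1 promoter is not particular to the myeloid lineage.

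The H3K4me3 files list 24212 distinct peaks in RS4;11 and 26523 in THP-1 cells, and the WDR5 files list 703 and 225. They give positions only, without tag counts, heights or p-values, so the depth is unknown and width is the only size of a peak. The widest H3K4me3 peak listed was 4478 bp in RS4;11 and 4446 bp in THP-1 cells. A set of 20 reference genes that all cells use, chosen after the files had been seen, was listed incompletely. An H3K4me3 peak covered the 5′ end of 11 of them in RS4;11 and of 9 in THP-1 cells, and none was listed within 5000 bp of the 5′ end of ACTB, GAPDH or B2M in either line. Among genes with a peak of 2000 to 2500 bp over the 5′ end in RS4;11 cells, 96.6% had an overlapping peak in THP-1 cells, against 67.5% for peaks of 4000 bp or more and 69.2% for peaks under 1000 bp. In THP-1 cells, the share with an overlapping RS4;11 peak was highest at 3000 to 3500 bp (90.0%), 74.8% at 4000 bp or more, 68.6% at 1000 to 2000 bp and 41.3% under 1000 bp. The share was thus lower at both ends of the range of widths. A gene without a listed peak can therefore not be taken as a gene without the mark, and the cause of the missing peaks was not tested. The lines were also checked by markers. CD79A and CD79B, signaling chains of the B cell receptor, had a peak over the 5′ end in RS4;11 cells only. PAX5 and EBF1, which direct the B lineage, had one in THP-1 cells only, against the label of that line. Of 9 monocytic markers, 3 had such a peak in RS4;11 and 5 in THP-1 cells, with ITGAM and CYBB marked in THP-1 cells only. Of 5 T cell genes, 2 were marked in RS4;11 and 1 in THP-1 cells. Over all protein-coding genes, the share marked over the 5′ end was 45.7% in RS4;11 and 48.5% in THP-1 cells. On so few genes, the marker counts do not tell the lines apart.

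At least 1 H3K4me3 peak was listed for all 9 myeloid factor genes in RS4;11 cells and for 8 in THP-1 cells, where CEBPD had none. Over all protein-coding genes, a peak within 20 kb was found for 78.6% in RS4;11 and 83.5% in THP-1 cells. The number of peaks was nearly equal, 14 in RS4;11 and 13 in THP-1 cells, and so was their summed width, 27814 and 27050 bp. The THP-1 sum holds peaks of 3833 and 3762 bp that cover TSSs of neighboring genes. Counted over the gene and 2000 bp to each side alone, there were 8 peaks in RS4;11 and 4 in THP-1 cells. The same count was not made over all genes, and the part of missing peaks in it was not tested. The places of the peaks differed. A peak covered the 5′ end of the gene for 5 of 9 genes in RS4;11 cells (SPI1, CEBPB, CEBPE, KLF4 and EGR1), against 45.7% of all genes. In THP-1 cells 3 of 9 had one (CEBPB, CEBPE and EGR1), against 48.5% of all genes. With the TSS of the MANE Select transcript, the reference transcript chosen jointly by RefSeq and Ensembl, the counts were 6 of 9 in RS4;11 (50.2% of all genes) and 3 of 9 in THP-1 cells (53.9%). By this TSS, SPI1, CEBPE and EGR2 were marked in RS4;11 cells only, CEBPB, KLF4 and EGR1 in both, and CEBPA, CEBPD and GFI1 in neither. The share of all genes marked in 1 line only was not counted by this TSS. By the 5′ end, 2 of 9 were marked in RS4;11 only (7.44% of all genes) and 0 in THP-1 only (10.2%). The counts for each line lie near the shares of all genes, and on 9 genes the counts do not set the myeloid factors apart.

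**Figure D1:**
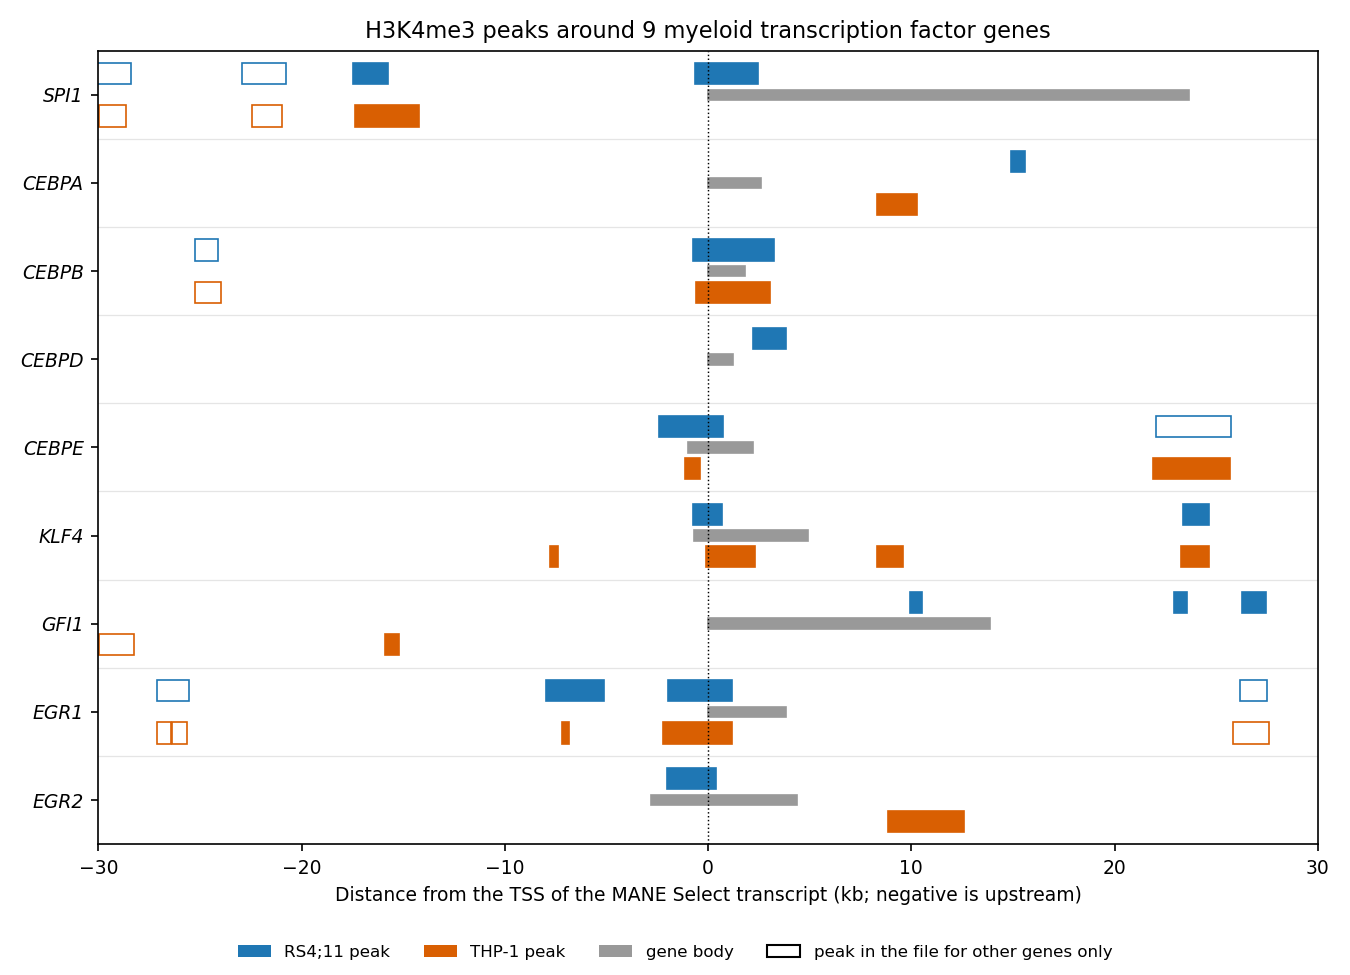
Listed H3K4me3 peaks within 30 kb of the TSS of the MANE Select transcript of the 9 genes, with distance along the gene in kb on the x axis and 1 row for each gene. Blue boxes are RS4;11 peaks, orange boxes THP-1 peaks, gray bars the gene bodies, and open boxes are peaks that the files list for other genes only. SPI1, CEBPE and EGR2 have a peak over this TSS in RS4;11 but not in THP-1 cells, and CEBPA, CEBPD and GFI1 have none in either line. This TSS was added after the data had been seen, and the share of all genes marked in 1 line only was not counted by it. By the 5′ end of the gene, SPI1 and KLF4 are marked in RS4;11 cells only, CEBPE in both lines and EGR2 in neither.

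SPI1 (chromosome 11, 47376411 to 47400098, minus strand, hg19) encodes PU.1, an ETS factor that is required for monocytes, granulocytes and B cells. In RS4;11 cells a peak of 3100 bp (47397663 to 47400762) covered the TSS, from -664 to 2435 bp relative to it, and took in exon and intron sequence at the start of the gene. This peak was wider than 88.8% of all H3K4me3 peaks of the file. In THP-1 cells no peak was listed over the gene or between it and 14214 bp upstream. The next peak upstream was listed in both lines. It spanned 1730 bp in RS4;11 (47415857 to 47417586, -17488 to -15759 bp) and 3143 bp in THP-1 cells (47414312 to 47417454, -17356 to -14214 bp). Both peaks shared 1598 bp, which was 92.4% of the RS4;11 peak and 50.8% of the THP-1 peak. The THP-1 peak reached nearer to SPI1 and was wider than 91.9% of the peaks of its file, while the RS4;11 peak was wider than 58.8%. The same peaks are also listed for SLC39A13, a zinc transporter gene, as lying upstream of it, and they cover no annotated TSS of another protein-coding gene.

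CEBPA (chromosome 19, 33790840 to 33793440, minus strand) encodes C/EBPα, which is essential for granulocyte and monocyte progenitors. It had 0 bp under listed H3K4me3 peaks within 5000 bp of its 5′ end in either line. A single peak was listed for it in each line, downstream of the gene and not at the same place. The RS4;11 peak was 696 bp wide (33777821 to 33778516) and lay 12324 bp past the gene. The THP-1 peak was 1999 bp wide (33783137 to 33785135), lay 5705 bp past the gene and was wider than 70.4% of all THP-1 peaks. These peaks did not overlap each other, and both are also listed as upstream of LOC80054, a noncoding transcript. CEBPD (chromosome 8, 48649475 to 48650726, minus strand), which encodes the inflammation-induced C/EBPδ, had 1 RS4;11 peak of 1627 bp (48646912 to 48648538). It lay 937 bp past the gene and over exon and intron sequence of KIAA0146. No THP-1 peak was listed for CEBPD.

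CEBPB and CEBPE were the C/EBP genes with a marked 5′ end. CEBPB (chromosome 20, 48807367 to 48809205, plus strand), an intronless gene for C/EBPβ, a factor of emergency granulopoiesis and macrophage activation, had nearly the same peak in both lines. It measured 3981 bp in RS4;11 (48806621 to 48810601) and 3666 bp in THP-1 cells (48806763 to 48810428). The THP-1 peak lay wholly inside the RS4;11 peak, and each extended over the whole gene. These were among the widest peaks of the files, wider than 98.0% and 96.9% of all peaks. CEBPE (chromosome 14, 23586245 to 23589465, minus strand) encodes C/EBPε, a factor of late granulocyte maturation. Its RS4;11 peak of 3125 bp (23587743 to 23590867) ran from -2403 to 721 bp around the MANE Select TSS. The THP-1 peak was 729 bp wide (23588885 to 23589613) and lay inside it, from -1149 to -421 bp, so that it covered the annotated 5′ end of the gene and not the MANE Select TSS. CEBPE thus had 4.29 times as many bp under a peak in RS4;11 as in THP-1 cells. A further THP-1 peak of 3833 bp (23562762 to 23566594), listed for CEBPE at 19651 bp past the gene, covered TSSs of ACIN1 and C14orf119. The RS4;11 file holds a peak of 3698 bp at the same place but lists it for other genes only, so it was not counted for CEBPE.

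The promoters of CEBPB and CEBPE are shown because they differ in sequence as well as in the mark. RefSeq promoter sequences (GRCh38.p14) were given for 7 of the 9 genes, not for SPI1 and CEBPD, and were placed in GRCh37 by exact match. The 250 bases before the MANE Select TSS are printed 5′ to 3′ on the strand of the gene, chr20:48807117-48807366 (plus strand) for CEBPB and chr14:23588465-23588714 (minus strand) for CEBPE, both in GRCh37. Capitals mark matches, searched on both strands, of the TATA box TATAAA, of the Sp1 motif GGGCGG, of the PU.1 core GAGGAA, of the AP-1 motif TGANTCA and of the CArG box.
CEBPB promoter: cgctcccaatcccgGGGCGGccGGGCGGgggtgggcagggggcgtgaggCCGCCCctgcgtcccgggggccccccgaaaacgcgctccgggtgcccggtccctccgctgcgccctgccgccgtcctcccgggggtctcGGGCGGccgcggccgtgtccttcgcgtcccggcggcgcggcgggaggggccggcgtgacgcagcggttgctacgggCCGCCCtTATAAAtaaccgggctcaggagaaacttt
CEBPE promoter: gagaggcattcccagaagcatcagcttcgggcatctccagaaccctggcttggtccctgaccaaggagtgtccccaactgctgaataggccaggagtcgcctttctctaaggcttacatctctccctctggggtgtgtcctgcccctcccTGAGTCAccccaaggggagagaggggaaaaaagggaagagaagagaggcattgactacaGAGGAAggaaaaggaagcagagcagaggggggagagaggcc
The CEBPB sequence had 77.6% G and C with 38 CpG dinucleotides, 5 matches of GGGCGG and 1 of TATAAA at -29 relative to the TSS. The CEBPE sequence had 57.2% G and C and 2 CpG, no GGGCGG, and 1 match each of GAGGAA and TGANTCA. Over 35093 promoters of the same length the median was 58.0% G and C with 11 CpG, and GGGCGG was found in 42.6%, TATAAA in 10.7%, GAGGAA in 23.6% and TGANTCA in 6.57%. All 250 CEBPB bases lay under an H3K4me3 peak in both lines, and all 250 CEBPE bases in RS4;11 cells but 0 in THP-1 cells. The CEBPA promoter, with 81.2% G and C, 41 CpG and TATAAA at -30, lay outside the listed peaks of both lines. So did that of GFI1, with 61.2% and 19 CpG. The EGR2 promoter, under a peak in RS4;11 cells only as for CEBPE, had 66.0% G and C and 27 CpG. Those of EGR1 and KLF4 had 68.4% and 69.2%, each with 25 CpG. A relation between sequence and mark was not tested.

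KLF4 (chromosome 9, 110247133 to 110252763, minus strand) encodes a zinc finger factor that promotes the monocytic branch. It was the member with the most THP-1 peaks, 4 against 2 in RS4;11 cells, and the only member with at least 1.5 times as many bp within 5000 bp of its 5′ end under a peak in THP-1 cells. The peak at the TSS was 1435 bp wide in RS4;11 (110251350 to 110252784) and 2402 bp in THP-1 cells (110249765 to 110252166), a ratio of 1.67. With a window of 2000 bp or a threshold of 2 times, KLF4 no longer counted as higher in THP-1 cells. The RS4;11 peak ran from -734 to 700 bp around the MANE Select TSS. The THP-1 peak ran from -116 to 2285 bp, so it began near the TSS and extended into the gene, and both shared 817 bp. Around KLF4, a peak of 1283 bp in RS4;11 and 1384 bp in THP-1 cells lay more than 18 kb past the gene and shared 1269 bp. Listed in THP-1 cells alone were a peak of 1273 bp that lay 3406 bp past the gene (110242455 to 110243727) and one of 409 bp from -7782 to -7374 bp. The latter was narrower than all but 2.15% of the peaks of its file. The 250 bases before the MANE Select TSS, chr9:110252051-110252300 (GRCh37, minus strand), are shown because the 2 peaks part within them. All 250 bases lay under the RS4;11 peak, and only the last 116 under the THP-1 peak. Capitals are as for CEBPB.
KLF4 promoter: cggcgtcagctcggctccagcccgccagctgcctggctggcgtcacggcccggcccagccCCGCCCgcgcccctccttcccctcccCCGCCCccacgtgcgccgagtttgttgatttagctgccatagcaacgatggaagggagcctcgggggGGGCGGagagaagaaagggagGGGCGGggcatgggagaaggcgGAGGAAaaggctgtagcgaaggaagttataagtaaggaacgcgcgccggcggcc
This sequence held 4 matches of GGGCGG and 1 of GAGGAA.

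GFI1 (chromosome 1, 92938600 to 92952482, minus strand), which encodes a zinc finger repressor, had 0 bp under a listed peak within 5000 bp of its 5′ end in either line. Its RS4;11 peaks were narrow. One of 624 bp (92941944 to 92942567) lay in an intron, and those of 675 and 1176 bp lay 9021 and 12373 bp past the gene. In THP-1 cells a single peak of 697 bp (92967684 to 92968380) lay 15202 bp upstream, a place also listed as downstream of EVI5. None of these 4 peaks overlapped a peak of the other line, against an overlap for 55.8% of all RS4;11 and 51.8% of all THP-1 peaks. So few peaks do not set GFI1 apart.

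EGR1 and EGR2 encode zinc finger factors that are induced within minutes by growth signals and that favor macrophages. EGR1 (chromosome 5, 137801168 to 137804992, plus strand) had a peak of like width and place over the TSS in both lines. It spanned 3109 bp in RS4;11 (137799213 to 137802321) and 3389 bp in THP-1 cells (137798934 to 137802322), and the RS4;11 peak lay wholly inside the other. The downstream ends were 1153 and 1154 bp from the TSS. A peak upstream of EGR1 differed more. It was 2831 bp wide in RS4;11 (137793214 to 137796044) and 364 bp in THP-1 cells (137793974 to 137794337), where it was narrower than all but 1.03% of the peaks, and lay inside the RS4;11 peak. EGR2 (chromosome 10, 64571756 to 64578927, minus strand) had 1 peak in each line, at different ends of the gene. The RS4;11 peak of 2422 bp (64575746 to 64578167) covered the MANE Select TSS, from -2041 to 380 bp, and stopped short of the annotated 5′ end of the gene. The THP-1 peak of 3762 bp (64563519 to 64567280) lay 4476 bp past the gene over a TSS of ADO, the neighboring gene for a thiol dioxygenase. No THP-1 peak was listed over EGR2 itself.

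The promoters of EGR1 and EGR2 are shown because both hold a CArG box, the motif bound by serum response factor at immediate early genes, which was found in 1.16% of all 35093 promoters. The 250 bases before the TSS are chr5:137800918-137801167 (plus strand) for EGR1 and chr10:64576127-64576376 (minus strand) for EGR2, in GRCh37. Capitals are as for CEBPB.
EGR1 promoter: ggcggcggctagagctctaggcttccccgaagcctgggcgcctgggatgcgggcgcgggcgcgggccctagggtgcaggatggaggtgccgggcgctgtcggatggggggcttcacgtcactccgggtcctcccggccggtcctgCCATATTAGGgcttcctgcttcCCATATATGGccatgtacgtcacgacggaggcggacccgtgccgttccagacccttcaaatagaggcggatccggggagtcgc
EGR2 promoter: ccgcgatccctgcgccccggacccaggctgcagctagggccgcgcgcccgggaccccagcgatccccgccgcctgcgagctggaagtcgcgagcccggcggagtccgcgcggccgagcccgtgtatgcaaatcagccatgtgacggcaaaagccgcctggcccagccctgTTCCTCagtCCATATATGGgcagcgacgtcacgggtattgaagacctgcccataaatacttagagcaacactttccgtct
EGR1 held 2 CArG boxes, at -105 and -83 relative to the TSS, and EGR2 held 1 at -71. Of the 7 promoters given, no other had one. The EGR1 sequence lay wholly under a peak in both lines, and that of EGR2 in RS4;11 cells only. The matches are a description and no measure of binding. The pair of C/EBP motifs can share a site, and GGGCGG can share bases with the EGR motifs. Of the other motifs searched in the 7 promoters, CCAAT was found in 1 (32.0% of all promoters), CACCC in 4 (54.7%) and AATCNNNGC, with the core bound by GFI1, in 1 (9.65%). The C/EBP motifs TTGCNNAA (9.05%) and TTNNGNAA (33.2%), the EGR motifs GCGGGGGCG (4.72%) and GCGTGGGCG (0.721%), and TGACGTCA (1.65%), the motif of CREB, were found in none of the 7.

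The H3K4me3-covered length within 5000 bp of the 5′ end was compared over the 9 genes. In RS4;11 cells it was 3981 bp at CEBPB, 3125 bp at CEBPE, 3109 bp at EGR1, 3100 bp at SPI1, 2422 bp at EGR2, 1627 bp at CEBPD, 1435 bp at KLF4, and 0 at CEBPA and GFI1. In THP-1 cells it was 3666 bp at CEBPB, 3389 bp at EGR1, 2402 bp at KLF4, 729 bp at CEBPE, and 0 at the other 5 genes. Of the 7 genes with at least 500 bp in either line, 4 were at least 1.5 times higher in RS4;11 cells (SPI1, CEBPD, CEBPE and EGR2), against 16.5% of 13446 genes. KLF4 alone was higher in THP-1 cells, against 25.6% of genes, and CEBPB and EGR1 differed by less than 1.5 times. The median of the 7 genes was 3100 bp in RS4;11 and 729 bp in THP-1 cells, and that of the 13446 genes was 2327 and 2284 bp. Over all 9 factors the medians were 2422 and 0 bp. The 20 reference genes, chosen after the files had been seen, had medians of 2376.5 and 767.5 bp. Of 12 reference genes with at least 500 bp in either line, 3 were higher in RS4;11 and 0 in THP-1 cells. A higher median in RS4;11 cells was thus not particular to the factors. At 3 of the 4 factors higher in RS4;11 cells, the THP-1 value was 0, for which no ratio is given. These 3 factors reached 500 bp through RS4;11 cells alone, so passing that limit fixed their call. The shares of all genes were counted by the same rule. The THP-1 median of the 7 genes includes these 3 values of 0. Such values are the ones that the missing peaks described above touch, and their part in the difference was not tested.

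**Figure D2:**
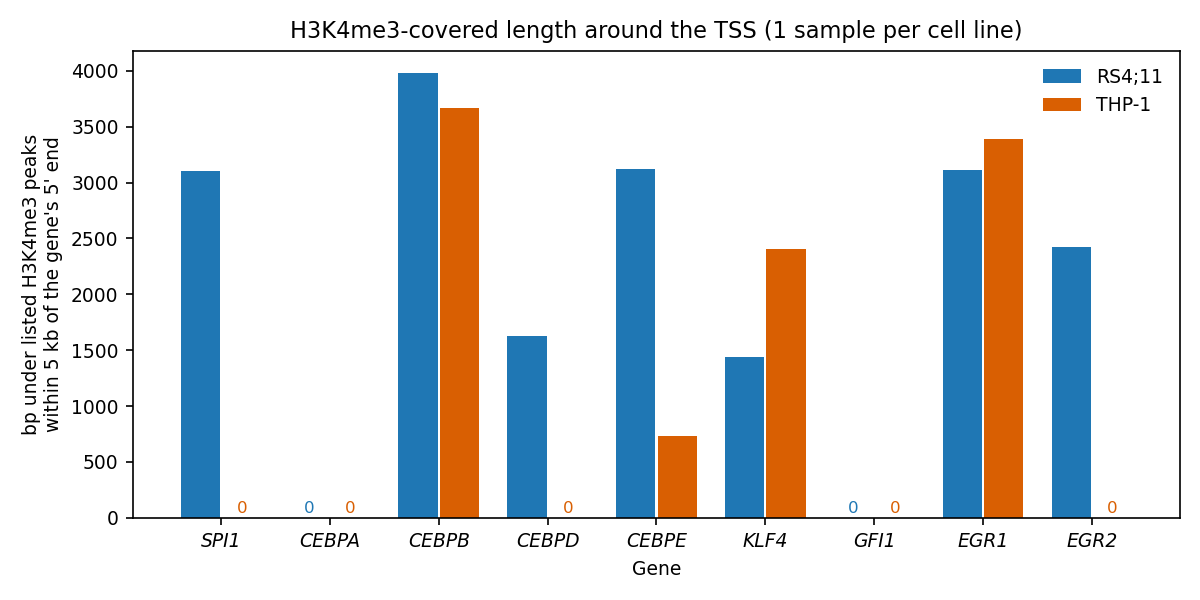
Length in bp under listed H3K4me3 peaks within 5000 bp to each side of the 5′ end of the gene (y axis) for each of the 9 genes (x axis), with 1 bar for the single sample of each line and no error. A 0 marks a gene without a listed peak in the window. CEBPB and EGR1 have bars of like height, KLF4 is higher in THP-1 cells (2402 against 1435 bp), and SPI1, CEBPD and EGR2 have a bar in RS4;11 cells only.

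The members' peaks over a TSS had a higher median width than those elsewhere, with ranges that overlapped. In RS4;11 cells the 6 peaks over a TSS of a member had a median width of 3104.5 bp (1435 to 3981) and the other 8 of 1229.5 bp (624 to 2831). In THP-1 cells the 4 peaks over a TSS had a median of 2895.5 bp (729 to 3666) and the other 9 of 1384 bp (364 to 3833). Such widths are not particular to the members. Over all genes, 1592 had a peak of 3000 to 3500 bp over the 5′ end in RS4;11 cells. In THP-1 cells, 1985 had one of 2500 to 3000 bp. The widest THP-1 peaks elsewhere were those over the TSSs of ACIN1 and C14orf119 and of ADO. Overlap with a peak of the other line was found for 7 of 14 RS4;11 peaks, near the 55.8% of all RS4;11 peaks, and for 8 of 13 THP-1 peaks (51.8% of all THP-1 peaks).

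**Figure D3:**
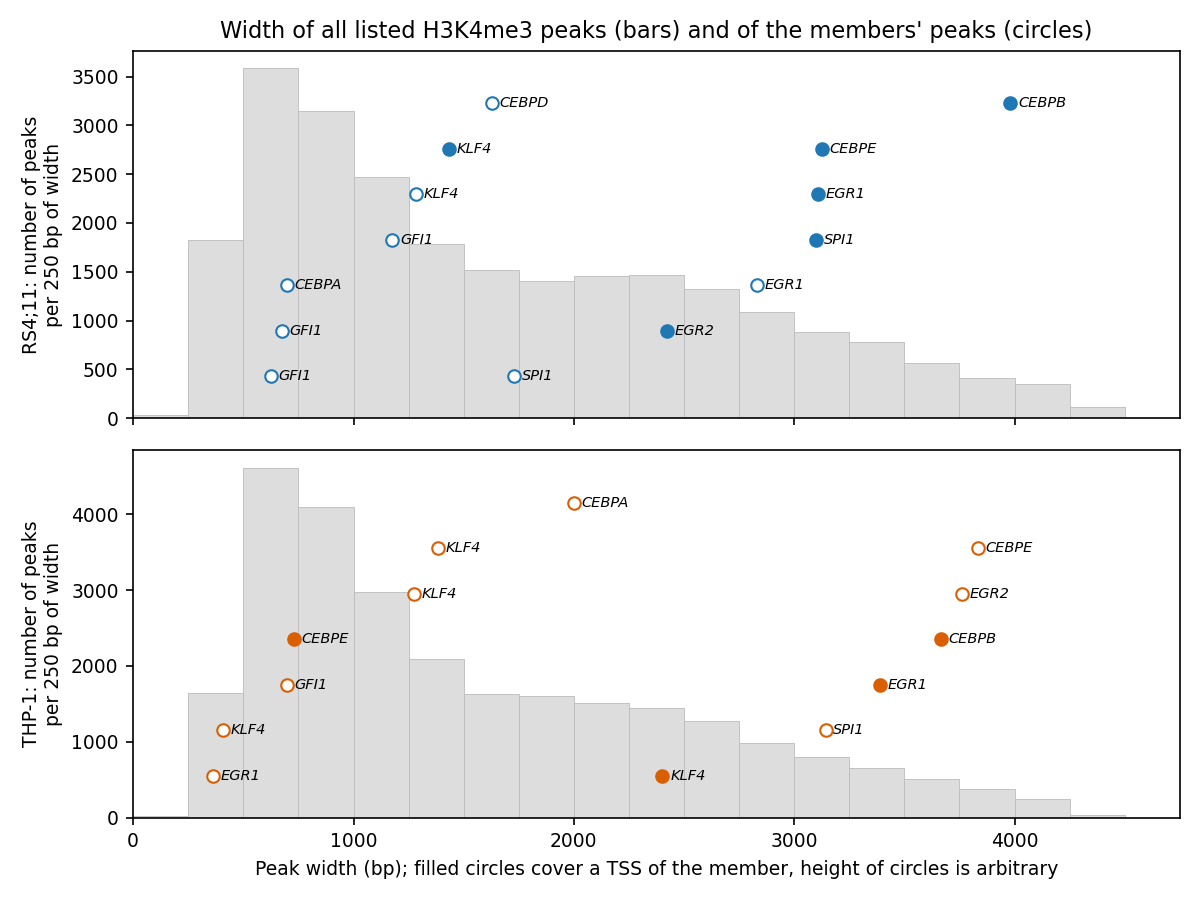
Width of all H3K4me3 peaks in bp (x axis), with the number of peaks per 250 bp of width as gray bars (y axis), for RS4;11 (top) and THP-1 cells (bottom). Circles mark the peaks of the 9 genes at arbitrary height, filled where the peak covers a TSS of the gene. In RS4;11 cells 4 of the 6 filled circles lie above 3000 bp (SPI1, EGR1, CEBPE and CEBPB), and no peak of either file is wider than 4478 bp.

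WDR5 was not found near these genes. No WDR5 line named any of the 9 in either cell line, against 4.40% of protein-coding genes with a WDR5 peak within 20 kb in RS4;11 and 1.48% in THP-1 cells. At such shares 0 of 9 is near the background. The nearest WDR5 peak center in RS4;11 cells was 637526 bp from the 5′ end of GFI1, and the other 8 genes were farther, up to 10827743 bp at SPI1. In THP-1 cells the nearest was 101263 bp from GFI1, the next 3541087 bp from EGR1, and no WDR5 peak was listed on chromosome 14, which holds CEBPE. All H3K4me3 peaks of these genes, the wide ones at CEBPB and EGR1 included, were thus without a listed WDR5 peak.

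Related genes were counted in the same way, by an H3K4me3 peak over the 5′ end. Over all protein-coding genes, 38.3% had one in both lines, 7.44% in RS4;11 only, 10.2% in THP-1 only and 44.1% in neither. The 9 factors had 3, 2, 0 and 4 genes in these classes. The 24 paralogs, which are other C/EBP, PU.1-like, GFI1, EGR and KLF genes, had 6, 3, 5 and 10. Among them DDIT3, a stress-induced C/EBP protein, was marked over the 5′ end in RS4;11 cells only, although the window around it held 5874 bp in RS4;11 and 5692 bp in THP-1 cells. KLF6 (4244 bp) and CEBPG (3565 bp) were marked in RS4;11 cells and KLF12 (3719 bp) in THP-1 cells, each with 0 bp in the other line. The 26 partners and regulators had 6, 7, 3 and 10 genes in the 4 classes. Of these, LMO2 (4316 bp), a bridging factor of blood stem cells, and SRF (3806 bp), which binds the CArG box, were marked in RS4;11 cells with 0 bp in THP-1 cells. JUND, an AP-1 subunit, was marked over the 5′ end in RS4;11 cells only, with 3977 bp in RS4;11 and 3270 bp in THP-1 cells. RCOR1, a corepressor that works with GFI1, had 0 bp in RS4;11 and 4454 bp in THP-1 cells. By covered length, 18 partners and regulators had at least 500 bp in either line, of which 7 were higher in RS4;11 and 3 in THP-1 cells. Of 20 such paralogs, 4 were higher in RS4;11 and 8 in THP-1 cells. Over all genes the shares were 16.5% and 25.6%.

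Of 22 genes known as targets of these factors in myeloid cells, 12 were marked over the 5′ end in THP-1 cells, near the 48.5% of all genes, and 5 in RS4;11 cells, against 45.7% of all genes. ITGAM, CYBB and other genes of this list are also among the monocytic markers. By class, 4 were marked in both lines, 1 in RS4;11 only, 8 in THP-1 only and 9 in neither. Within 5000 bp of the 5′ end, 18 of them had at least 500 bp in either line, of which 10 were at least 1.5 times higher in THP-1 cells (25.6% of all genes) and 3 in RS4;11 cells (16.5% of all genes, a like share). A gene with 0 bp in 1 line passes the limit of 500 bp through the other line alone, which fixes its call. ITGB2, the β chain of the leukocyte integrins, had 931 bp in RS4;11 and 3650 bp in THP-1 cells. ELANE, the gene of neutrophil elastase, had 0 and 3581 bp. CSF3R, the receptor of granulocyte colony-stimulating factor, had 0 and 3027 bp. The 3 genes higher in RS4;11 cells were named after their values were seen. CTSG, the gene of cathepsin G, had 1437 bp in RS4;11 and 0 in THP-1 cells, AZU1 had 747 and 0 bp, and PRTN3 had 616 and 0 bp. The values of AZU1 and PRTN3 lay near the limit of 500 bp, and neither gene had a peak over the 5′ end in either line. The 10 B-lineage factors had 2 genes marked in both lines, 0 in RS4;11 only, 4 in THP-1 only and 4 in neither. LEF1 (4711 bp), FOXO1 (4150 bp), PAX5 (4037 bp) and EBF1 (2805 bp) were marked in THP-1 cells with 0 bp in RS4;11 cells.

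**Figure D4:**
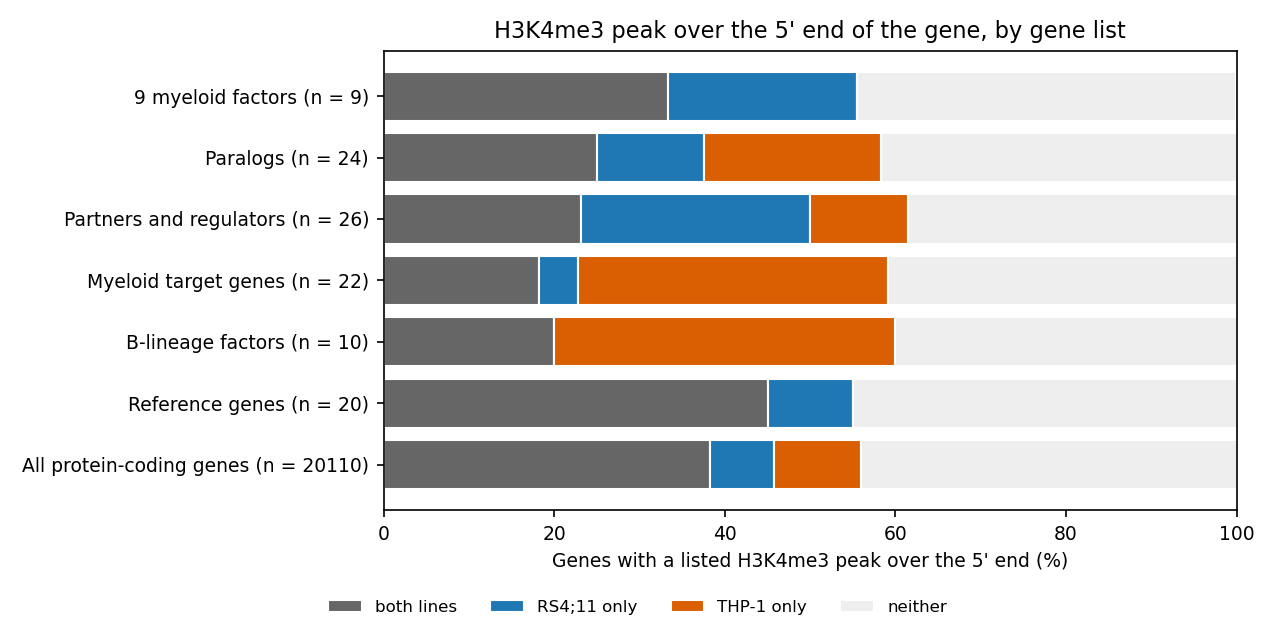
Share of genes in percent (x axis) with a listed H3K4me3 peak over the 5′ end in both lines, in RS4;11 only, in THP-1 only or in neither, for 7 groups of genes with their number (y axis). The myeloid factors have no gene in the THP-1 only class and the B-lineage factors none in the RS4;11 only class, while 36.4% of the myeloid target genes were marked in THP-1 cells only, against 10.2% of all genes.

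The genes most like SPI1 and KLF4, whose 5′ end was covered in 1 line only, were sought among 82 genes of these lists. The measure was the sum of the differences in covered length over the 2 H3K4me3 libraries. FOS (3353 bp in RS4;11, 0 in THP-1 cells) and CEBPG (3565 and 0 bp) were nearest to SPI1, with sums of 253 and 465 bp. IKZF3 (1531 and 2103 bp) and KLF14 (1573 and 2037 bp) were nearest to KLF4, with sums of 395 and 503 bp. Unlike KLF4, both had a peak over the 5′ end in each line. By the MANE Select TSS, KLF4 was marked in both lines too.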

How the data were processed

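ChIP-seq of H3K4me3 and of WDR5 was analysed from 1 sample of RS4;11 and 1 of THP-1 cells each. According to the paper, the authors fragmented chromatin with micrococcal nuclease for H3K4me3 and by sonication for WDR5 (the labels give sonicated nuclei for all samples), aligned the reads to hg19 with Eland (up to 2 mismatches, unique alignments) and called peaks with MACS at default parameters. The submitters' processing notes also name CASAVA 1.7 and 1.8.2. The deposited files hold peak positions with yes or no flags for each transcript within 20 kb. The version of MACS and an input control are not given in the sources used here.

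Lines were reduced to distinct peaks. Genes and TSSs came from GENCODE release 44 mapped to GRCh37, which has the coordinates of hg19. The TSS was the 5′ end of the gene, with the MANE Select TSS added after the data had been seen. Covered length was the union of peaks within 5000 bp of it, and a gene was called higher at 1.5 times with at least 500 bp in either line. Each gene of the set was named in full. From each list of related genes at most 4 were named, those marked in 1 line only, in order of covered length, and some genes of these lists are not reported here. Members and lists were chosen with earlier results of these data known. CSF2RA was left out of the target genes, as its symbol is annotated on both X and Y. The counting was tested on simulated data, where 400 of 400 planted peaks gave the right covered length. Python 3.11.15 and matplotlib 3.10.9 were used.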

Additional observations from a re-analysis of the deposited data

How the results depend on the processing

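Of 44 alternatives computed for 14 results, 39 stayed within 1.5 times of the reported value and 5 moved further. Counting peaks over the gene or 2000 bp to each side, in place of the lines naming it, lowered the H3K4me3 peaks of RS4;11 cells to 8 and those of THP-1 cells to 4, since peaks farther away are then left out. The number of members higher in THP-1 cells, 1 as reported, became 0 with a threshold of 2 times, 0 with a window of 2000 bp and 2 with a window of 10000 bp. KLF4 is the gene lost, and CEBPA, whose THP-1 peak lies farther downstream, is within reach of the widest window. Between 3 and 5 members were higher in RS4;11 cells under all settings. TSS peaks were counted at 5 to 6 members for RS4;11 and at 3 to 4 for THP-1. The WDR5 count stayed at 0 within 50000 bp and by the nearest gene. With only those protein-coding genes that the files name, the shares of all genes were 16.4% and 26.3%. The MANE Select alternatives were chosen after seeing the data. The TSS of the deposited lines was not run, as the files give none. No paired analysis was possible because each group holds 1 sample. The unknown depth, the single samples and the peaks missing from the lists limit every comparison between the lines.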
